A study of Homo sapiens with 12 samples.

Results

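The RNA levels of 40 genes that make nucleotides, one-carbon units, serine and polyamines were followed in human cancer cells treated with SWTX-143, which irreversibly inhibits TEAD proteins, the DNA-binding partners of the Hippo pathway coactivators YAP and TAZ. The genes were taken by their symbols from 27064 gene symbols in the count tables, and all 40 had enough reads to be tested in both cell lines. The study read poly(A) RNA from NCI-H226 (H226), a mesothelioma line, and from ACHN, a kidney cancer line. Per the submitters, both lines lack NF2, a tumour suppressor upstream of the Hippo kinases, so the controls share that deficiency. The 4 groups were H226 with 100 nM SWTX-143 overnight, H226 with DMSO, ACHN with 100 nM SWTX-143 overnight and ACHN with DMSO, with 3 libraries in each. Each tissue is thus represented by 1 established line grown in 6-well plates. No label states that replicate libraries came from separate cultures, so p-values measure only the spread between these libraries, which may be technical.

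Purine rings are built on phosphoribosyl pyrophosphate (PRPP), a sugar phosphate that is also joined to the finished pyrimidine ring and to salvaged free bases. Serine gives one-carbon units to folate, and folate carries them into the purine ring and into thymidylate, while polyamines are made from ornithine and decarboxylated S-adenosylmethionine. Growing and dividing cells use these routes to supply RNA and DNA synthesis, and many of the enzymes are known as targets of MYC, of E2F factors or of ATF4.

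Levels are CPM, read counts scaled to a common library size after TMM adjustment, and ± after a CPM value is the SD of 3 libraries. The adjustment was made within each line. For cell type markers, levels compared between lines under DMSO and levels per kb, it was made over all 12 libraries. The values of a library thus differ somewhat between these scales. Effects are log2 fold changes of SWTX-143 over DMSO, and ± after a log2 value is its SE. A gene was called when its adjusted p was below 0.05 in edgeR's quasi-likelihood test with Benjamini-Hochberg adjustment over all genes tested in the same fit. The H226 libraries held between 9690980 and 11262663 counts, and the ACHN libraries between 10113810 and 11206457. The TEAD target CTGF, which encodes a matrix protein, averaged 13.2 ± 1.18 CPM under SWTX-143 against 76.1 ± 7.11 CPM under DMSO in H226, and 22.02 ± 2.09 CPM under SWTX-143 against 115 ± 1.68 CPM under DMSO in ACHN. Under DMSO H226 exceeded ACHN in all 8 mesothelial markers looked up, and ACHN exceeded H226 in 6 of 7 kidney markers, the remaining one, EMX2, being at 0 in every library. Of 5 immune markers, the pan-leukocyte gene PTPRC had no count in any library and CD3E, LYZ and CD79A had at most 4 counts, while CD68, which other cells also make, averaged 12.4 CPM under SWTX-143 against 9.93 CPM under DMSO in H226, and 59.9 CPM against 44.1 CPM in ACHN. H226 SWTX-143 library 3 stood somewhat apart, with a chi-square per degree of freedom of 3.12 and 3.42 against libraries 1 and 2, which had 1.44 between them. Without it, 29 of the 40 genes were called lower and 3 higher in H226, and 2826 were lower and 2539 higher of all 13616 genes then tested.

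Most of the 40 genes, which were chosen with earlier results of these data known, fell in H226. SWTX-143 lowered 29 of the 40 and raised 2, the serine enzyme PHGDH and the ribonucleotide reductase subunit RRM2B, and 9 were not called. Over all 13484 genes tested in H226, 21.6% were called lower, 19.0% higher and 40.7% in either direction. The median log2 fold change was −0.36 over the 40 genes and −0.001 over all tested genes, and 36 of the 40 had values below zero. In 31 of the 40 all 3 treated libraries lay below all 3 DMSO libraries, as did 25.7% of all tested genes, and in 3 all treated libraries lay above, as did 23.0% of all tested genes. The summed level of the 40 was 3357 ± 54.2 CPM under SWTX-143 and 4383 ± 83.7 CPM under DMSO, a change of −23.4%. A fall of at least 1.5-fold was called for 7 of them, namely CTPS1, PRPS1, SRM, MTHFD2, PPAT, UCK2 and RRM2, and 3.62% of all tested genes passed the same limit. No member rose by 1.5-fold in edgeR's fit at an adjusted p below 0.05 (0 of 40), against 5.20% of all tested genes. At an unadjusted p below 0.05 none did either (0 of 40), and no share of all genes is given for that limit. With upper-quartile scaling the calls were 28 lower and 3 higher among the 40, and 2324 lower and 3283 higher among all genes, against 2919 lower and 2567 higher with TMM. In these cultures, fewer cells in a state that makes such an RNA and less of the RNA per cell cannot be told apart.

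**Figure D1:**
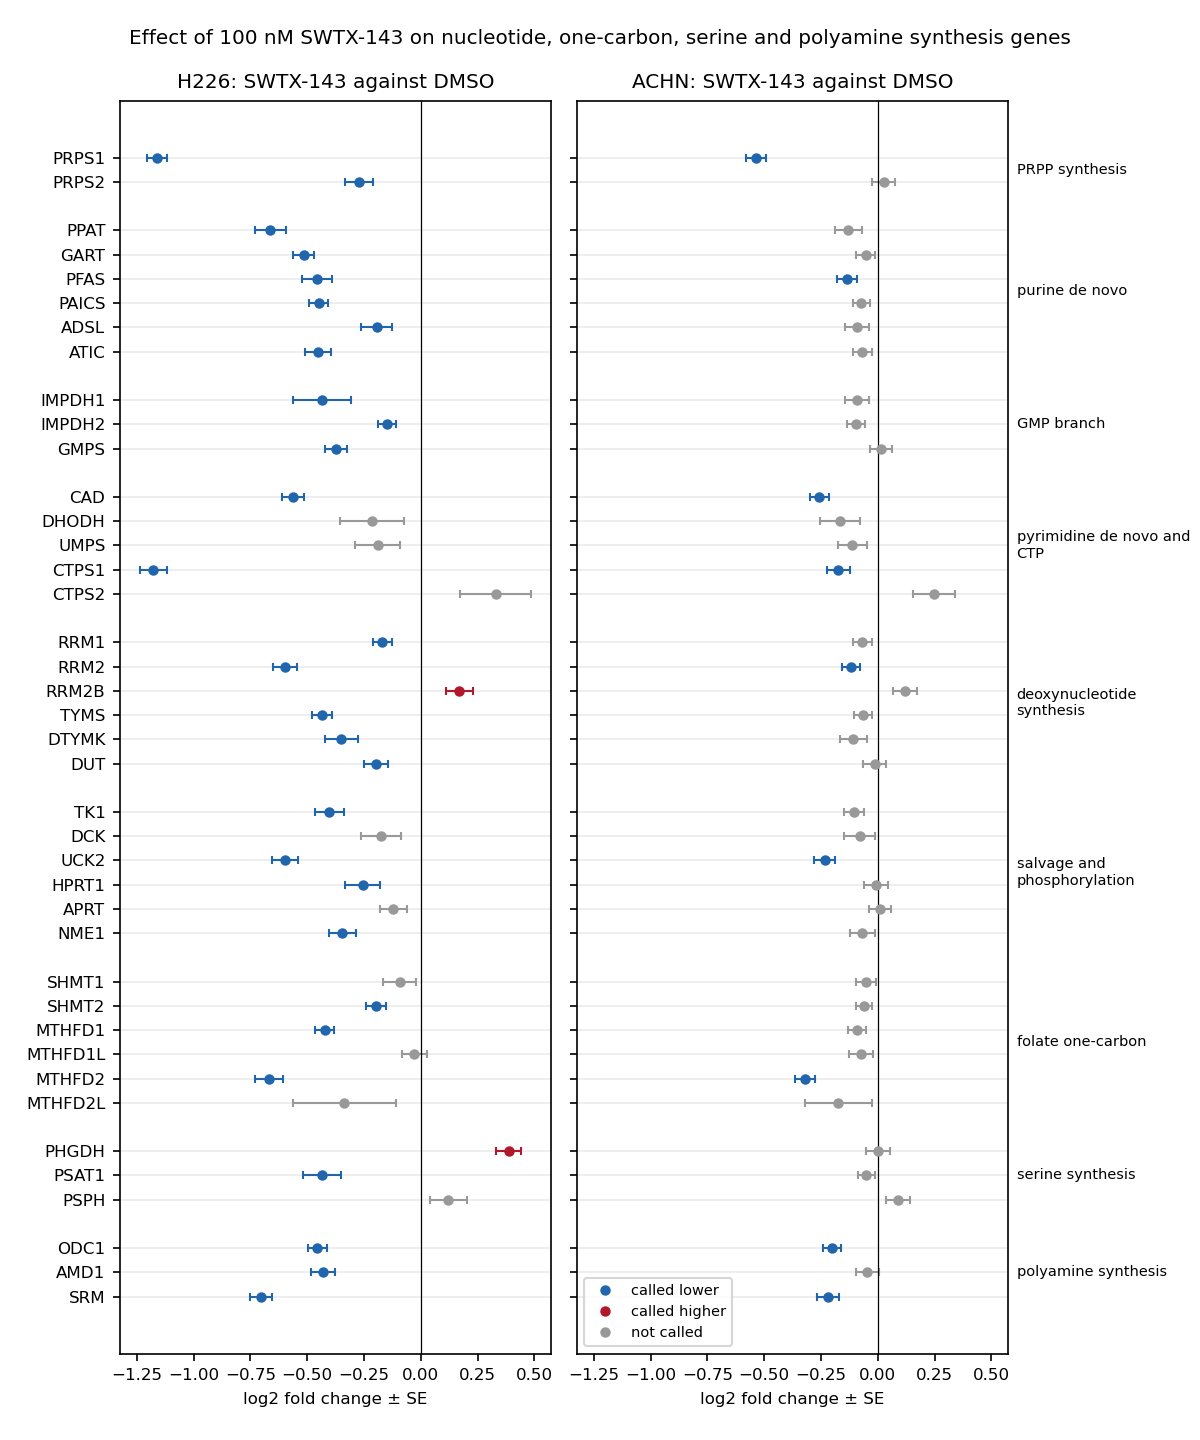
Log2 fold change of SWTX-143 over DMSO with its SE (x axis) for each of the 40 genes, grouped by role, in H226 and in ACHN, 3 libraries per group. In H226 29 genes were called lower and 2 higher, and in ACHN 9 were called lower and none higher.

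CTPS1, the cytidine triphosphate synthase that is most needed in proliferating lymphocytes, and PRPS1 showed the deepest falls, which did not differ beyond their SE. The level of CTPS1 was 32.8, 37.3 and 36.2 CPM in the SWTX-143 libraries, against 80.7, 80.7 and 79.4 CPM in the DMSO libraries in H226, so that the groups stood far apart and each was tight. The mean was 2.26-fold lower under SWTX-143 (log2 fold change −1.18 ± 0.060, adjusted p = 1.34e-23). The other, PRPS1, is a PRPP synthetase whose product feeds purine, pyrimidine and salvage synthesis. It had 123, 121 and 113 CPM in the SWTX-143 libraries, against 268, 274 and 257 CPM in the DMSO libraries. Every treated library was below the lowest DMSO library, and the mean was 2.24-fold lower (log2 fold change −1.16 ± 0.045, adjusted p = 9.7e-29). SRM, spermidine synthase, had 98.97, 106 and 101 CPM in the SWTX-143 libraries, against 157, 171 and 170.4 CPM in the DMSO libraries, again without overlap (log2 fold change −0.70 ± 0.048, adjusted p = 3.07e-18). MTHFD2, the mitochondrial folate dehydrogenase and cyclohydrolase, had 40.7, 41.3 and 37.05 CPM in the SWTX-143 libraries, against 62.5, 67.3 and 59.1 CPM in the DMSO libraries. Its groups did not overlap (log2 fold change −0.67 ± 0.063, adjusted p = 3.25e-13). PPAT, the amidotransferase that commits PRPP to purine synthesis, had 29.6, 31.7 and 33.8 CPM in the SWTX-143 libraries, against 48.3, 50.9 and 51.4 CPM in the DMSO libraries, with the highest treated library well below the lowest DMSO library (log2 fold change −0.66 ± 0.067, adjusted p = 2.91e-12).

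**Figure D2:**
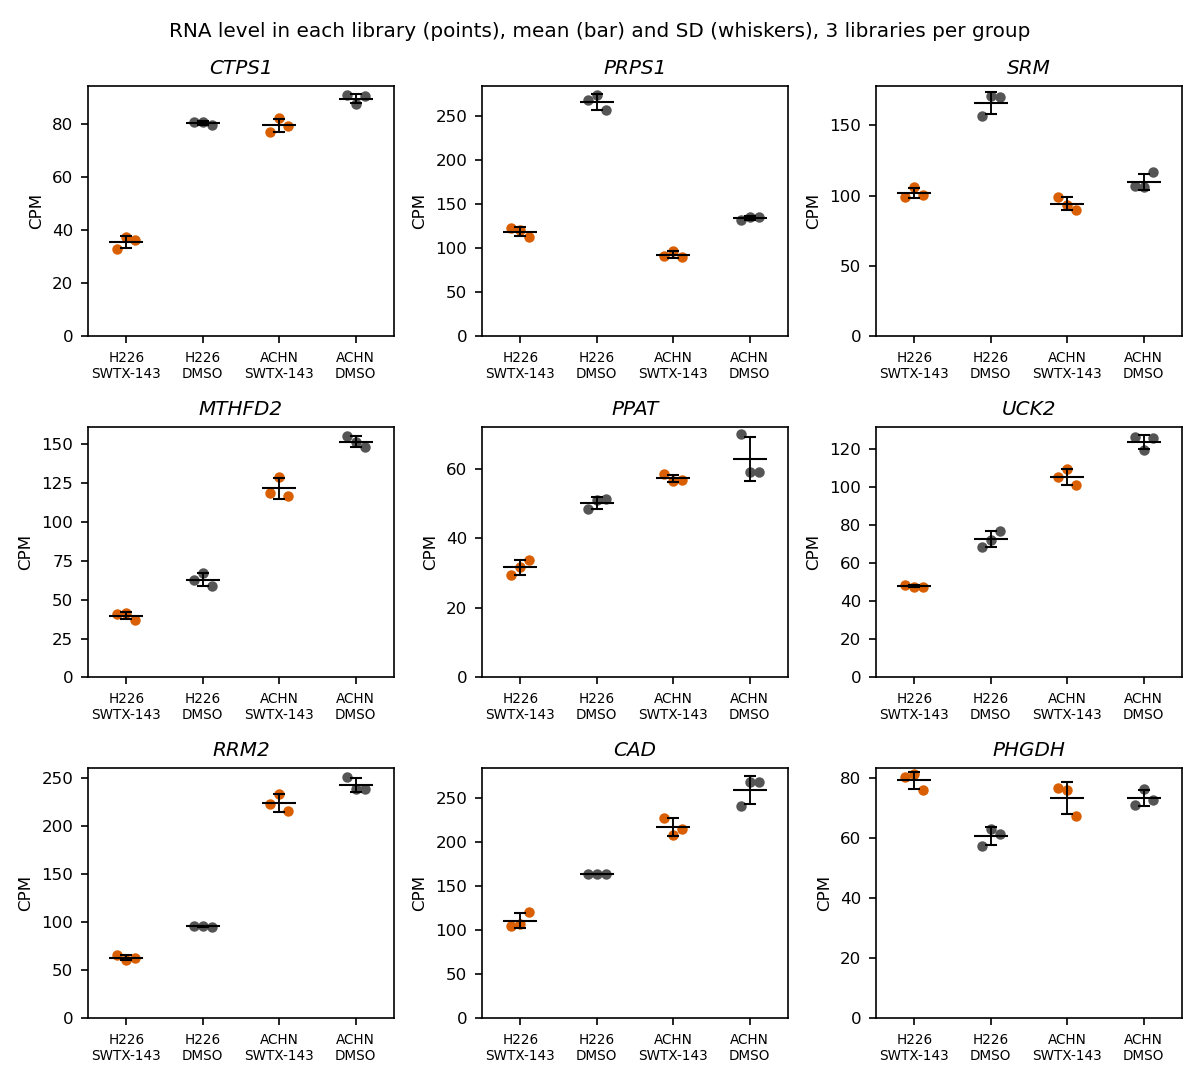
Level in CPM (y axis, from 0) of CTPS1, PRPS1, SRM, MTHFD2, PPAT, UCK2, RRM2, CAD and PHGDH in each library (points), with the mean (bar) and SD (whiskers) of 3 libraries per group. CTPS1 averaged 35.4 ± 2.32 CPM under SWTX-143 against 80.3 ± 0.733 CPM under DMSO in H226, and 79.4 ± 2.52 CPM under SWTX-143 against 89.5 ± 1.82 CPM under DMSO in ACHN. Each line was scaled alone, so levels here are not to be compared between lines.

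The promoter windows of PRPS1, CTPS1, MTHFD2 and SRM are shown because their log2 fold changes, summed over both lines without sign, were the largest. That of PPAT is shown because it also holds an annotated start of PAICS. Each runs from 250 bases before to 50 bases after the RefSeq transcription start (GRCh38.p14), 5′ to 3′ on the gene's strand, with any searched motif in capitals. The motifs were CACGTG (the E-box bound by MYC), TTTNNCGC (E2F-type), TGANGCAA (ATF4 and C/EBP composite) and GGAATG (TEAD-type), on both strands. The windows are PRPS1 at chrX:107628260-107628559 on the plus strand, CTPS1 at chr1:40979446-40979745 on the plus strand, MTHFD2 at chr2:74198365-74198664 on the plus strand, SRM at chr1:11059969-11060268 on the minus strand and PPAT at chr4:56435566-56435865 on the minus strand.
PRPS1: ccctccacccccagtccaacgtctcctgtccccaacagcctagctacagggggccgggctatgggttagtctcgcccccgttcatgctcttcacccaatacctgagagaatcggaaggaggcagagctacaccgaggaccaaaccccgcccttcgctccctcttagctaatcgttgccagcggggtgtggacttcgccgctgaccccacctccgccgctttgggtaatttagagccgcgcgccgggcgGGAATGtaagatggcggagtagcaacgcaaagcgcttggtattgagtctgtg
CTPS1: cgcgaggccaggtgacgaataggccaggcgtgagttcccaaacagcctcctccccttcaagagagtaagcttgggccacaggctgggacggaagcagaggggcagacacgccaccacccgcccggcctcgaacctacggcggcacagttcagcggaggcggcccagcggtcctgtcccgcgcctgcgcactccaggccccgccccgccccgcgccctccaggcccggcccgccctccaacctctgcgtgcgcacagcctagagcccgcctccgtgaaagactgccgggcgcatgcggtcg
MTHFD2: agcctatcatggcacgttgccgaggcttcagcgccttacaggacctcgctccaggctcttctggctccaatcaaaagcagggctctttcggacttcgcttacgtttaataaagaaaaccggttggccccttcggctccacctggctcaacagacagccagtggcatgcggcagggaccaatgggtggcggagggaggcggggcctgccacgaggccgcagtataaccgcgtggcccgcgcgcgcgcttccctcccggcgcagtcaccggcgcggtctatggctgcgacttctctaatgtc
SRM: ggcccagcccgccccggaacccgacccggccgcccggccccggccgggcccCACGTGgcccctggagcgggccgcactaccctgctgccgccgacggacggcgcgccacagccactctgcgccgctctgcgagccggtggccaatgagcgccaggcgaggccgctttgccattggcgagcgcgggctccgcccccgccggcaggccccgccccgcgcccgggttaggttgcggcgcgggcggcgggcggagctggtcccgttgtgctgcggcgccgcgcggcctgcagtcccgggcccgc
PPAT: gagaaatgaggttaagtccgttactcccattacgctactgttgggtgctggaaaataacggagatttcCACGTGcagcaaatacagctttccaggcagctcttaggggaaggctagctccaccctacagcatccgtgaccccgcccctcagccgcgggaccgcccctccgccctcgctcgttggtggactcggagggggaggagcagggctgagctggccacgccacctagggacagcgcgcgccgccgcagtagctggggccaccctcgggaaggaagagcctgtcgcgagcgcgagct
The capitals in PRPS1 are a TEAD-type match whose first base lies 2 bases before the start. The capitals in SRM and PPAT are E-boxes that begin 199 and 182 bases before the start. The windows of CTPS1 and MTHFD2 held none of the 4 motifs. RefSeq windows were held for 35 of the 40 genes, all but IMPDH2, RRM2B, ADSL, SHMT2 and PSPH. Of the 35, 8 (22.9%) held an E-box, namely SRM, ATIC, PPAT, DCK, MTHFD1L, MTHFD1, DHODH and NME1, and 7.26% of all 35116 windows did. DHODH, DCK and MTHFD1L, which hold an E-box, were not called in H226. E2F-type letters stood in 3 (8.57%, DCK, TYMS and PRPS2, against 6.89% of all windows). ATF4-type letters also stood in 3 (8.57%, UMPS, MTHFD1L and HPRT1, against 3.22%), as did TEAD-type letters (8.57%, APRT, GART and PRPS1, against 14.0%). A match is only a description of the letters, and overlaps between motifs were not removed. The PPAT window also holds the 5′ end of PAICS in GENCODE 29, at position 56435741, which faces away from PPAT 126 bases from its 5′ end. RefSeq's own window for PAICS lies elsewhere on chromosome 4.

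Both PRPP synthetases fell in H226, and their summed level was 161 ± 5.25 CPM under SWTX-143, against 317 ± 7.89 CPM under DMSO. PRPS2, the second PRPP synthetase, had 40.3, 42.7 and 41.95 CPM in the SWTX-143 libraries, against 50.7, 49.2 and 51.1 CPM in the DMSO libraries. Its groups did not overlap, with a gap far smaller than that of PRPS1 (log2 fold change −0.27 ± 0.062, adjusted p = 0.000291).

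All 6 enzymes of the purine route from PRPP to inosine monophosphate (IMP) fell in H226, with a median log2 fold change of −0.46. Their summed level was 549 ± 4.73 CPM under SWTX-143, against 757 ± 12.5 CPM under DMSO. GART, a trifunctional enzyme that takes a one-carbon unit from folate, had 113, 112 and 115 CPM in the SWTX-143 libraries, against 161, 166 and 158 CPM in the DMSO libraries. All treated libraries were below all DMSO libraries (log2 fold change −0.52 ± 0.046, adjusted p = 5.62e-14), and exon stretches of GART overlap SON on the other strand, whose reads may be mixed in. PFAS (−0.46 ± 0.066), ATIC (−0.45 ± 0.057) and PAICS (−0.45 ± 0.041), which carry out later steps of ring building and closure, fell by nearly the same amount. ADSL, adenylosuccinate lyase, fell least (log2 fold change −0.19 ± 0.069, adjusted p = 0.0196). Its call was lost without SWTX-143 library 1 (adjusted p = 0.116), SWTX-143 library 2 (adjusted p = 0.0501) or DMSO library 2 (adjusted p = 0.108), and with upper-quartile scaling, library size alone or DESeq2.

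The 3 enzymes that turn IMP into GMP also fell in H226. IMPDH2, the more abundant IMP dehydrogenase, had 338, 335 and 329.9 CPM in the SWTX-143 libraries, against 371, 371 and 370.2 CPM in the DMSO libraries. The groups did not overlap, though the fall was small (log2 fold change −0.15 ± 0.040, adjusted p = 0.00186). IMPDH1, its low-level isozyme in this line, had 8.58, 9.21 and 7.23 CPM in the SWTX-143 libraries, against 9.61, 12.1 and 12.3 CPM in the DMSO libraries (log2 fold change −0.43 ± 0.13, adjusted p = 0.00465), without overlap. DESeq2 gave IMPDH1 an adjusted p of 0.0501. GMPS, GMP synthetase, also fell (log2 fold change −0.37 ± 0.049).

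Of the 5 pyrimidine genes, the first and the CTP step fell while the middle steps were not called. CAD, the trifunctional protein that opens the route, had 104, 107 and 121 CPM in the SWTX-143 libraries, against 164, 163 and 164 CPM in the DMSO libraries. All 3 DMSO libraries were nearly equal and all treated ones were lower (log2 fold change −0.56 ± 0.049, adjusted p = 2.78e-14). DHODH, the mitochondrial dehydrogenase, had 6.63 ± 0.264 CPM under SWTX-143 against 7.73 ± 0.668 CPM under DMSO (log2 fold change −0.22 ± 0.14, adjusted p = 0.222). UMPS, which completes uridine monophosphate, had 15.1 ± 0.794 CPM under SWTX-143 against 17.2 ± 1.61 CPM under DMSO (log2 fold change −0.19 ± 0.10, adjusted p = 0.122). CTPS2, the second CTP synthase, had 7.37, 6.66 and 6.07 CPM in the SWTX-143 libraries, against 5.93, 5.89 and 3.99 CPM in the DMSO libraries. Its treated libraries were all above its DMSO libraries at these low counts, but it was not called (log2 fold change 0.33 ± 0.16, adjusted p = 0.0926), and leaving out 1 library moved it between 0.18 (without DMSO library 3, adjusted p = 0.428) and 0.42 (without DMSO library 1, adjusted p = 0.0617). It was called higher without SWTX-143 library 3 (0.40, adjusted p = 0.0494) and with upper-quartile scaling (0.38, adjusted p = 0.0492).

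All 6 deoxynucleotide genes were called in H226, 5 lower and 1 higher. RRM2, the S-phase small subunit of ribonucleotide reductase, had 65.8, 60.8 and 62.6 CPM in the SWTX-143 libraries, against 95.4, 96.3 and 94.6 CPM in the DMSO libraries. Its treated libraries all lay well below its DMSO libraries (log2 fold change −0.60 ± 0.053, adjusted p = 3.64e-14). RRM2B, the p53-inducible small subunit that serves outside S phase, had 62.7, 62.2 and 57.3 CPM in the SWTX-143 libraries, against 55.5, 53.2 and 53.1 CPM in the DMSO libraries. All treated libraries were above all DMSO libraries, by a narrow margin (log2 fold change 0.17 ± 0.058, adjusted p = 0.0155). That call was lost without SWTX-143 library 1 (adjusted p = 0.0781), SWTX-143 library 2 (adjusted p = 0.0688), DMSO library 2 (adjusted p = 0.0593) or DMSO library 3 (adjusted p = 0.0558), and with DESeq2. RRM1, the large subunit, fell only slightly (−0.17 ± 0.043) and averaged 326 ± 13.5 CPM under SWTX-143 against 366 ± 22.5 CPM under DMSO. TYMS, thymidylate synthase, fell (log2 fold change −0.44 ± 0.044), and its exons overlap ENOSF1 and TYMSOS on the other strand. DTYMK, thymidylate kinase (−0.35 ± 0.073), and DUT, which removes dUTP (−0.20 ± 0.051), fell as well.

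Salvage genes were mixed, with 4 lower and 2 not called in H226. UCK2, a uridine and cytidine kinase typical of tumour cells, had 48.6, 47.6 and 47.3 CPM in the SWTX-143 libraries, against 68.5, 72.3 and 76.7 CPM in the DMSO libraries. The treated libraries were almost identical and all lay below the DMSO libraries (log2 fold change −0.60 ± 0.058, adjusted p = 9.24e-13), and exons of UCK2 overlap TMCO1 on the other strand. TK1, the S-phase thymidine kinase (log2 fold change −0.40 ± 0.063), and NME1, a nucleoside diphosphate kinase (−0.34 ± 0.061), fell too. NME1 shares 638 exon bases with NME1-NME2 on its own strand, so its reads there may have been dropped or mixed in. HPRT1, which salvages hypoxanthine and guanine, fell (log2 fold change −0.26 ± 0.076, adjusted p = 0.00528), a call lost without DMSO library 1 (adjusted p = 0.0592) and with DESeq2. DCK, deoxycytidine kinase, had 19.3 ± 1.59 CPM under SWTX-143 against 21.8 ± 1.13 CPM under DMSO (adjusted p = 0.112), and shares exon bases with MOB1B on its own strand. APRT, which salvages adenine, had 62.5 ± 3.43 CPM under SWTX-143 against 67.9 ± 5.47 CPM under DMSO (adjusted p = 0.096), and was called lower without SWTX-143 library 2 (−0.17, adjusted p = 0.039) or DMSO library 3 (−0.17, adjusted p = 0.0384), while without DMSO library 1 it had −0.052 (adjusted p = 0.572).

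In the folate group the trifunctional cytosolic MTHFD1 (−0.42 ± 0.042), mitochondrial MTHFD2 and SHMT2 fell, and the other 3 were not called. SHMT2, the mitochondrial enzyme that splits serine into glycine and a one-carbon unit, had 167, 171 and 166 CPM in the SWTX-143 libraries, against 189, 199 and 190.1 CPM in the DMSO libraries. Its groups did not overlap (log2 fold change −0.20 ± 0.044, adjusted p = 0.000198). SHMT1, its cytosolic counterpart, had 29.7, 32.1 and 30.9 CPM in the SWTX-143 libraries, against 30.6, 35.8 and 32.4 CPM in the DMSO libraries. Those groups overlapped (log2 fold change −0.093 ± 0.073, adjusted p = 0.329), and SHMT1 shares exon bases with SMCR8 on the other strand. MTHFD1L, which releases formate in mitochondria, differed little (log2 fold change −0.028 ± 0.054, adjusted p = 0.715). MTHFD2L, the isozyme of MTHFD2, had 2.24, 2.72 and 2.14 CPM in the SWTX-143 libraries, against 3.503, 2.63 and 2.84 CPM in the DMSO libraries, too low to separate the groups (log2 fold change −0.34 ± 0.23, adjusted p = 0.241). The exons of MTHFD2 overlap SLC4A5 and those of MTHFD1 overlap ZBTB25, both of which had far fewer reads.

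The serine route from 3-phosphoglycerate did not move as one. PHGDH, its first and committing enzyme, had 80.2, 81.5 and 75.97 CPM in the SWTX-143 libraries, against 57.2, 62.99 and 61.5 CPM in the DMSO libraries. All treated libraries were above all DMSO libraries (log2 fold change 0.39 ± 0.055, adjusted p = 5.46e-08), the largest rise of the 40. PSAT1, the transaminase that follows, had 22.2, 19.7 and 19.5 CPM in the SWTX-143 libraries, against 25.8, 29.4 and 27.7 CPM in the DMSO libraries. It fell without overlap (log2 fold change −0.43 ± 0.083, adjusted p = 1.98e-05). PSPH, the final phosphatase, had 25.7 ± 0.69 CPM under SWTX-143 against 23.5 ± 1.71 CPM under DMSO and was not called (adjusted p = 0.235).

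All 3 polyamine enzymes fell in H226, and their summed level was 448 ± 7.16 CPM under SWTX-143, against 639 ± 16.1 CPM under DMSO. ODC1, ornithine decarboxylase, which opens the route, had 286, 276 and 270.1 CPM in the SWTX-143 libraries, against 377, 396 and 368 CPM in the DMSO libraries. Every treated library was below every DMSO library (log2 fold change −0.46 ± 0.041, adjusted p = 1.11e-13). AMD1, which makes decarboxylated S-adenosylmethionine, also fell (log2 fold change −0.43 ± 0.052). SRM, which joins both precursors into spermidine, fell furthest of the group, as given above.

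In ACHN the response of the same genes was shallower. SWTX-143 lowered 9 of the 40, and over all 13483 genes tested in ACHN 9.37% were called lower, 8.43% higher and 17.8% in either direction. No member was called higher by edgeR or by DESeq2 (0 each). At an unadjusted p below 0.05 edgeR's test gave 13 lower and 2 higher, CTPS2 and RRM2B. No share of all genes is given for that limit, and the shares above are not its background. The 9 were PRPS1, MTHFD2, CAD, UCK2, SRM, ODC1, CTPS1, PFAS and RRM2, and each of them had also fallen in H226. None of them fell by 1.5-fold. The median log2 fold change was −0.077 over the 40 genes and 0.001 over all tested genes, and 33 of the 40 had values below zero. In 18 of the 40 all treated libraries lay below all DMSO libraries, as did 16.1% of all tested genes, and in 2 they lay above, as did 15.8%. The summed level was 5080 ± 133 CPM under SWTX-143 and 5450.3 ± 58.1 CPM under DMSO, a change of −6.79%. With upper-quartile scaling 7 were lower and 1 higher, CTPS2, and with library size alone 7 were lower and 2 higher, CTPS2 and RRM2B. All genes then split into 1028 lower and 1450 higher, and 977 lower and 1537 higher, against 1264 lower and 1137 higher with TMM.

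PRPS1 led the falls in ACHN. It had 91.8, 97.04 and 89.9 CPM in the SWTX-143 libraries, against 132, 136 and 136 CPM in the DMSO libraries, far apart and each tight (log2 fold change −0.54 ± 0.046, adjusted p = 9.98e-14). MTHFD2 had 119, 129 and 117 CPM in the SWTX-143 libraries, against 155, 151 and 148 CPM in the DMSO libraries, without overlap (log2 fold change −0.32 ± 0.044, adjusted p = 1.34e-07). CAD had 227, 207 and 215 CPM in the SWTX-143 libraries, against 240.2, 268 and 268 CPM in the DMSO libraries (log2 fold change −0.26 ± 0.042, adjusted p = 4.92e-06). Its highest treated library stayed below its lowest DMSO library. UCK2 had 105, 109.6 and 101 CPM in the SWTX-143 libraries, against 126, 119 and 126 CPM in the DMSO libraries (log2 fold change −0.23 ± 0.046, adjusted p = 0.000122), with similarly separate groups. SRM had 99.5, 93.7 and 90.2 CPM in the SWTX-143 libraries, against 107, 106 and 117 CPM in the DMSO libraries (log2 fold change −0.22 ± 0.049, adjusted p = 0.000771). ODC1 had 263, 269.5 and 239 CPM in the SWTX-143 libraries, against 308, 285 and 294 CPM in the DMSO libraries (log2 fold change −0.20 ± 0.040, adjusted p = 0.00016). In both polyamine genes the groups were separate but close.

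CTPS1 fell far less in ACHN than in H226, with 76.99, 82.01 and 79.2 CPM in the SWTX-143 libraries, against 90.8, 87.4 and 90.3 CPM in the DMSO libraries (log2 fold change −0.17 ± 0.050, adjusted p = 0.00988). The groups were separate, and the call was lost without SWTX-143 library 1 (−0.15, adjusted p = 0.0702). PFAS (log2 fold change −0.13 ± 0.044, adjusted p = 0.0272) lost its call without SWTX-143 library 2 (adjusted p = 0.203), DMSO library 1 (adjusted p = 0.0889) or DMSO library 2 (adjusted p = 0.0884). RRM2 had 222, 233 and 215 CPM in the SWTX-143 libraries, against 250.4, 238 and 238 CPM in the DMSO libraries (log2 fold change −0.12 ± 0.039, adjusted p = 0.0294). Its groups were separate by a narrow margin, and its call was lost without SWTX-143 library 1 (adjusted p = 0.0975), SWTX-143 library 3 (adjusted p = 0.154), DMSO library 1 (adjusted p = 0.119) or DMSO library 3 (adjusted p = 0.0581). PFAS and RRM2 also lost their calls with upper-quartile scaling, library size alone and DESeq2.

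The remaining 31 genes were not called in ACHN, and their log2 fold changes ran between −0.17 ± 0.15 for MTHFD2L and 0.25 ± 0.092 for CTPS2. PPAT had 58.4, 56.6 and 56.8 CPM in the SWTX-143 libraries, against 69.99, 59.1 and 58.9 CPM in the DMSO libraries (adjusted p = 0.14). GART had 162, 166 and 157 CPM in the SWTX-143 libraries, against 169, 168 and 168 CPM in the DMSO libraries (adjusted p = 0.426). Both were lower in every treated library than in any DMSO library, by little. PRPS2, in contrast to PRPS1, had 77.5, 80.2 and 79.1 CPM in the SWTX-143 libraries, against 80.8, 74.6 and 77.1 CPM in the DMSO libraries, and its groups overlapped. PHGDH, which rose in H226, averaged 73.4 ± 5.22 CPM under SWTX-143 against 73.3 ± 2.73 CPM under DMSO in ACHN (0.001 ± 0.055). CTPS2 had 19.1, 21.9 and 22.9 CPM in the SWTX-143 libraries, against 19.5, 16.97 and 17.3 CPM in the DMSO libraries (log2 fold change 0.25 ± 0.092, adjusted p = 0.0545) and was called higher without SWTX-143 library 1 (0.33, adjusted p = 0.022) or DMSO library 1 (0.31, adjusted p = 0.0269), while without SWTX-143 library 3 it had 0.19 (adjusted p = 0.225). RRM2B had 71.9, 72.7 and 73.3 CPM in the SWTX-143 libraries, against 68.9, 65.7 and 66.01 CPM in the DMSO libraries (log2 fold change 0.12 ± 0.053, adjusted p = 0.123), with the treated libraries above the others.

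The other partners of the isozyme pairs were not called in ACHN. IMPDH1 had 74.7, 71.8 and 69.6 CPM in the SWTX-143 libraries, against 77.8, 73.99 and 78.1 CPM in the DMSO libraries, and IMPDH2 had 204, 199.97 and 192 CPM in the SWTX-143 libraries, against 216, 217 and 203 CPM in the DMSO libraries. In neither did the groups separate. SHMT1 had 111, 113 and 109 CPM in the SWTX-143 libraries, against 116, 111 and 117 CPM in the DMSO libraries, and SHMT2 had 364, 379.7 and 358 CPM in the SWTX-143 libraries, against 382, 386 and 381 CPM in the DMSO libraries. SHMT2 was lower in all treated libraries without being called (adjusted p = 0.258), while SHMT1 overlapped. MTHFD2L had 6.11, 7.76 and 7.28 CPM in the SWTX-143 libraries, against 9.51, 7.004 and 7.26 CPM in the DMSO libraries, with overlap.

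The effect of SWTX-143 differed between the lines for 23 of the 40 genes, in 1 fit of all 12 libraries. It was more negative in H226 for 22 and more positive in H226 for 1, PHGDH. Over all 14664 genes tested, the difference was called more negative in H226 for 9.70%, more positive for 5.89% and in either direction for 15.6%. The median difference, the H226 effect minus the ACHN effect on the log2 scale, was −0.29 over the 40 and −0.011 over all genes. CTPS1 differed most (−1.01 ± 0.079, adjusted p = 3.51e-18), followed by PRPS1 (−0.63 ± 0.066, adjusted p = 1.57e-12) and PPAT (−0.54 ± 0.091, adjusted p = 3.41e-06). SRM (−0.49 ± 0.070), RRM2 (−0.49 ± 0.067) and GART (−0.47 ± 0.063) came next. In the purine route the difference was also called for PFAS (−0.33 ± 0.080), PAICS (−0.39 ± 0.057) and ATIC (−0.39 ± 0.073), and ADSL was the exception (−0.11 ± 0.086, adjusted p = 0.469). PHGDH had a difference of 0.38 ± 0.079, adjusted p = 0.000169, and its neighbour PSAT1 one of −0.39 ± 0.088, adjusted p = 0.000539, so the first steps of serine synthesis differed between the lines in opposite directions. The 17 genes without a called difference included RRM2B (0.046 ± 0.079), CTPS2 (0.075 ± 0.18), SHMT1 (−0.047 ± 0.085) and IMPDH2 (−0.060 ± 0.058). Among the 22, HPRT1 (−0.26 ± 0.093, adjusted p = 0.046) was the least stable. Its call was lost without any 1 library other than ACHN SWTX-143 library 3, ACHN DMSO library 1 and H226 DMSO library 3, with adjusted p between 0.0547 and 0.301. NME1 lost its call without ACHN DMSO library 1 (0.0762), H226 DMSO library 2 (0.176) or 3 (0.0654), or H226 SWTX-143 library 1 (0.0756) or 2 (0.0563), each an adjusted p. TK1 lost it without H226 DMSO library 2 (adjusted p = 0.123) or H226 SWTX-143 library 3 (adjusted p = 0.0506). In contrast, DTYMK and DUT gained a call without ACHN DMSO library 3 (adjusted p = 0.047 and 0.0342), and IMPDH1 without ACHN SWTX-143 library 3 (adjusted p = 0.0445) or H226 DMSO library 1 (adjusted p = 0.0295). Upper-quartile scaling left 21 more negative and 1 more positive in H226, while all genes split into 1045 and 1159, against 1423 and 863 with TMM.

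**Figure D3:**
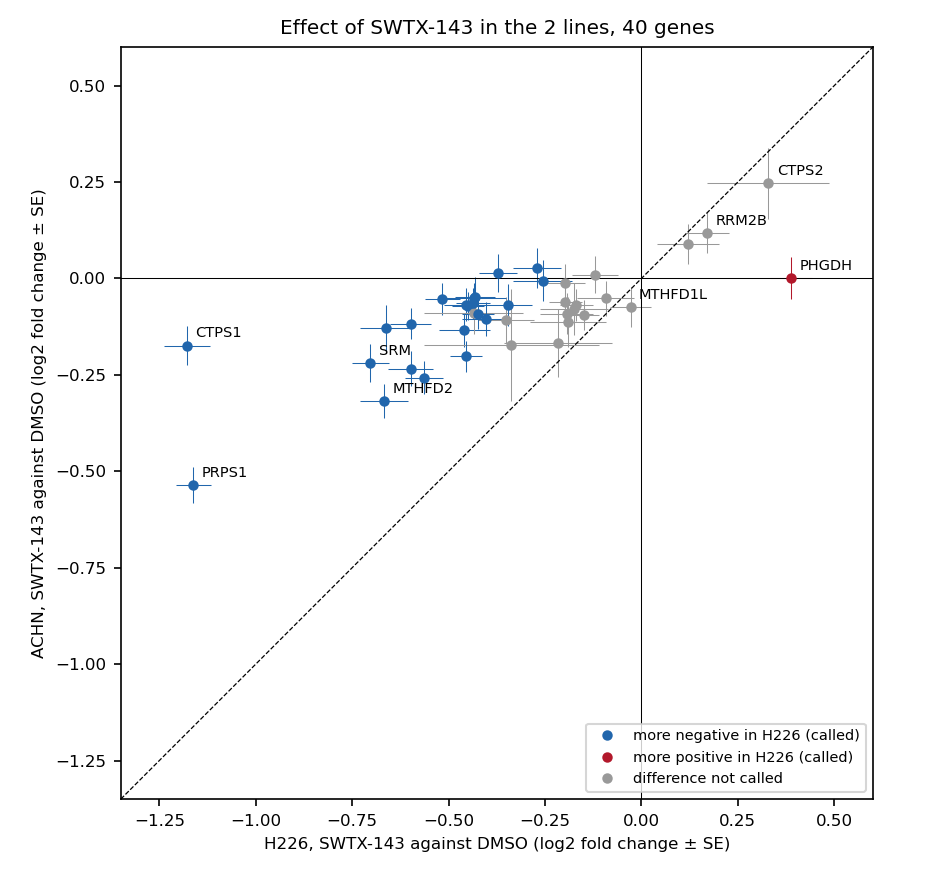
Log2 fold change of SWTX-143 over DMSO in H226 (x axis) and in ACHN (y axis) for the 40 genes, with SE as bars, 3 libraries per group, and the line of equal effects dashed. The 22 genes whose effect was called more negative in H226 lie left of that line, and PHGDH, called more positive in H226, lies right of it.

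In 3 of 6 isozyme pairs the ratio of the partners separated all treated from all DMSO libraries in both lines. The ratio was measured in each library as the log2 ratio of the partners' CPM, with 0.5 CPM added to each, and tested by an exact two-sided permutation test. With 3 libraries against 3 the smallest p is 0.1, so no pair could pass 0.05, and the 12 tests gave adjusted p values of 0.2 or more. No share over other gene pairs is given beside the separation. In the separated pairs the first partner, CTPS1, PRPS1 or RRM2, was itself called lower in both lines. The separation is therefore not a result apart from those calls. The CTPS1 to CTPS2 log2 ratio in H226 ran 2.15 to 2.57 in the SWTX-143 libraries, against 3.76 to 4.30 in the DMSO libraries, a change of −1.54 (exact p = 0.1). In ACHN the same ratio ran 1.79 to 2.01 in the SWTX-143 libraries, against 2.21 to 2.38 in the DMSO libraries, a change of −0.42 (exact p = 0.1). The PRPS1 to PRPS2 log2 ratio in H226 ran 1.43 to 1.61 in the SWTX-143 libraries, against 2.33 to 2.48 in the DMSO libraries, and in ACHN 0.19 to 0.27 in the SWTX-143 libraries, against 0.71 to 0.87 in the DMSO libraries. Treated and DMSO libraries were separate in both lines, and the changes were −0.89 in H226 and −0.56 in ACHN (exact p = 0.1 each). The RRM2 to RRM2B log2 ratio in H226 ran −0.031 to 0.13 in the SWTX-143 libraries, against 0.78 to 0.85 in the DMSO libraries. In ACHN that ratio ran 1.55 to 1.68 in the SWTX-143 libraries, against 1.85 to 1.86 in the DMSO libraries. Its changes were −0.77 in H226 and −0.24 in ACHN (exact p = 0.1 each). The ratios of IMPDH1 to IMPDH2, SHMT1 to SHMT2 and MTHFD2 to MTHFD2L overlapped between treated and DMSO libraries in both lines, with exact p between 0.2 and 0.9.

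**Figure D4:**
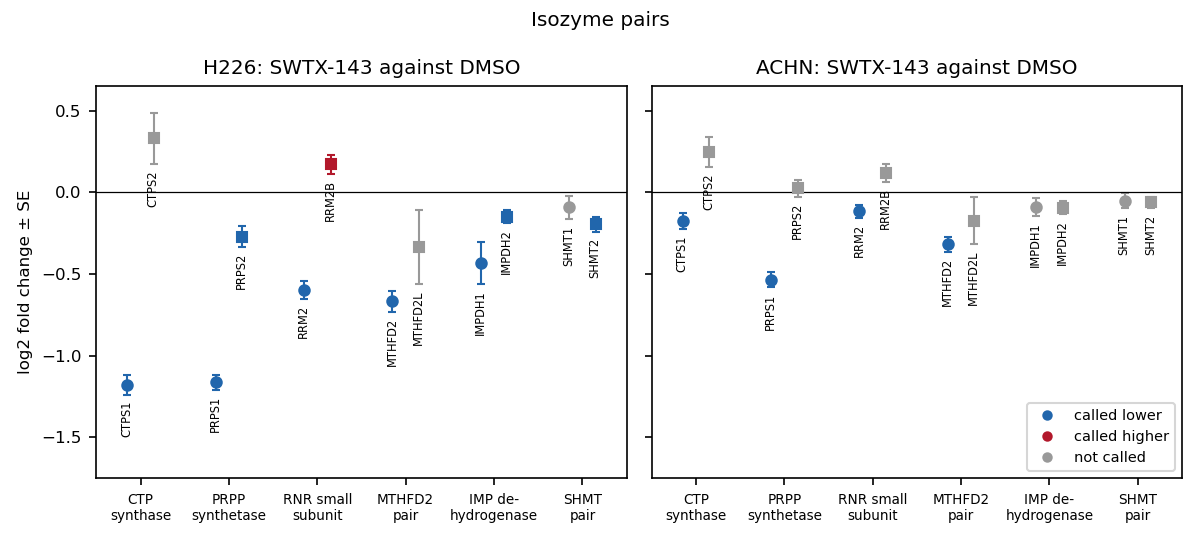
Log2 fold change of SWTX-143 over DMSO with its SE (y axis) for the partners of 6 isozyme pairs in H226 and ACHN, 3 libraries per group. CTPS1 and PRPS1 lie far below their partners in H226, and RRM2 and RRM2B lie on opposite sides of 0.

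Under DMSO the lines already differed in most of these RNAs, as they did in most of all tested genes. In the 12-library fit 29 of the 40 were lower and 9 higher in H226 than in ACHN, and over all tested genes 42.2% were lower, 42.2% higher and 84.4% different in either direction. PSAT1 stood furthest apart, with 29.01 ± 1.87 CPM in H226 against 312 ± 10.8 CPM in ACHN (log2 difference −3.42 ± 0.056). IMPDH1 had 11.9 ± 1.55 CPM in H226 against 72.3 ± 2.24 CPM in ACHN (−2.61 ± 0.079), and SHMT1 had 34.6 ± 2.76 CPM in H226 against 108 ± 2.92 CPM in ACHN (−1.65 ± 0.058). All 3 were thus far scarcer in H226. RRM1 had 384 ± 24.1 CPM in H226 against 153 ± 2.54 CPM in ACHN, PRPS1 had 279.8 ± 9.5 CPM in H226 against 127 ± 2.09 CPM in ACHN, IMPDH2 had 389 ± 1.13 CPM in H226 against 200.1 ± 7.16 CPM in ACHN, and SRM had 174 ± 8.01 CPM in H226 against 104 ± 5.56 CPM in ACHN, and these 4 were the most raised in H226. CTPS1 and DUT were not called, and CTPS1 had 84.3 ± 0.89 CPM in H226 against 84.4 ± 1.79 CPM in ACHN. With TMM over all 12 libraries, CTPS1, the gene with the largest difference in response, thus started at nearly equal levels, while PRPS1 started higher in H226. PPAT, GART, AMD1, MTHFD1L, PHGDH and RRM2B, whose log2 differences were small, each lost the call when 1 of the DMSO libraries was left out, at adjusted p between 0.0511 and 0.323. With library size alone the median of all genes moved by −0.16 and the GART difference was −0.059 in place of 0.10. The CTPS1 difference was then −0.16 and called (adjusted p = 0.00286). DUT was called higher in H226 without H226 DMSO library 3 (adjusted p = 0.0394) or ACHN DMSO library 3 (adjusted p = 0.024).

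**Figure D5:**
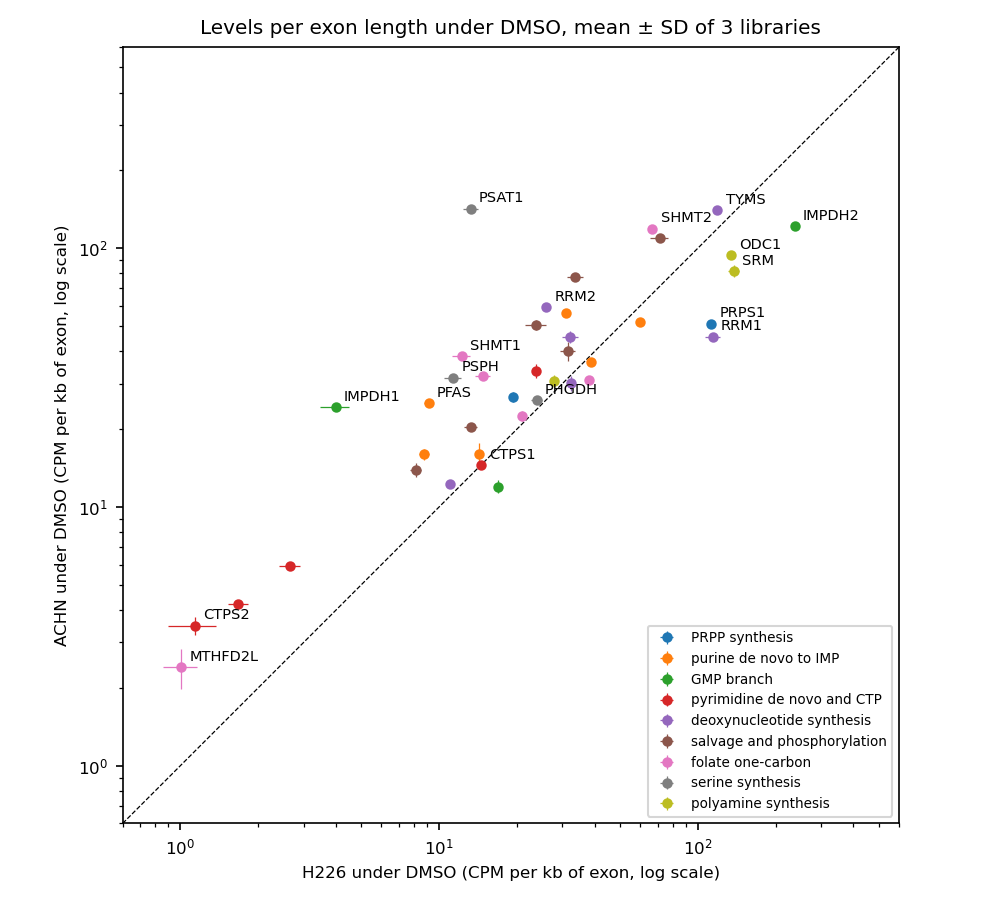
Level under DMSO in CPM per kb of exon (log axes) in H226 (x axis) and ACHN (y axis), mean and SD of 3 libraries, coloured by role, with the line of equal levels dashed. PSAT1 and IMPDH1 lie far above that line, and PRPS1, RRM1 and IMPDH2 below it.

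To compare genes with each other, CPM was divided by the gene's merged exon length in GENCODE 29, in kb. On that scale under DMSO, IMPDH2 was the highest of the 40 in H226, at 237 ± 0.686 CPM per kb, followed by SRM at 138 ± 6.33, ODC1 at 135 ± 5.1, TYMS at 119 ± 2.06, RRM1 at 114 ± 7.17 and PRPS1 at 113 ± 3.82. SRM and ODC1 did not differ beyond their SD, nor did TYMS and RRM1, or RRM1 and PRPS1. In ACHN the order began with PSAT1 at 142 ± 4.93, TYMS at 140.5 ± 0.861, IMPDH2 at 122 ± 4.36, SHMT2 at 119 ± 0.729 and APRT at 109.9 ± 2.42. There PSAT1 and TYMS did not differ beyond their SD, nor did IMPDH2 and SHMT2. In both lines these SDs hold only the spread between libraries and no error of the exon length. The order of genes with close values is thus uncertain. The lowest in both lines were MTHFD2L, with CPM per kb of 1.01 ± 0.155 in H226 and 2.41 ± 0.42 in ACHN, CTPS2, with 1.14 ± 0.241 in H226 and 3.49 ± 0.271 in ACHN, and DHODH, with 1.68 ± 0.144 in H226 and 4.24 ± 0.0826 in ACHN. PSAT1, first in ACHN, ranked 29 in H226. Named pseudogenes in GENCODE 29 exist for 17 of the 40, and only 1 of these genes has one in the count tables, so the counting could have split or dropped reads of such genes.

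Around the 40, 103 further genes of purine, pyrimidine, folate, methionine and polyamine metabolism and of PRPP and amide supply were counted. In H226 85 were tested, 29 (34.1%) were lower and 17 (20%) higher, against 21.6% and 19.0% of all genes, with a median log2 fold change of −0.061. In ACHN 87 were tested, 4 (4.6%) were lower and 9 (10.3%) higher, against 9.37% and 8.43% of all genes, with a median of −0.009. The share that rose was thus near that of all genes in both lines. Of the folate and methionine genes, 11 were lower and 5 higher of 21 tested in H226 (52.4% and 23.8%). Among them the mitochondrial folate carrier SLC25A32 (−0.53 ± 0.071), the plasma membrane carrier SLC19A1 (−0.67 ± 0.10) and the mitochondrial serine carrier SFXN1 (−0.37 ± 0.055) fell in H226. In ACHN 1 of 23 was lower and 3 were higher (4.35% and 13%, against 9.37% and 8.43% of all genes). The lower one was SLC25A32 again (−0.24 ± 0.072). Among the higher was AHCYL1 (0.14 ± 0.041), which also rose in H226 (0.24 ± 0.042).

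Polyamine genes outside the 40 were 6 lower and 3 higher of 16 tested in H226 (37.5% and 18.8%, against 21.6% and 19.0% of all genes). In ACHN 2 were lower and 1 higher of 18 (11.1% and 5.56%, against 9.37% and 8.43%), near the share of all genes. SMS, spermine synthase, fell in both lines (−0.44 ± 0.046 in H226 and −0.12 ± 0.041 in ACHN). EIF5A, the translation factor that carries a spermidine-derived hypusine, fell in H226 (−0.34 ± 0.039). SAT1, the acetyltransferase that starts polyamine breakdown, rose in H226, with 129 ± 4.9 CPM under SWTX-143 against 91.6 ± 3.98 CPM under DMSO (0.49 ± 0.050, adjusted p = 3.45e-12). The spermine oxidase SMOX rose in ACHN (0.39 ± 0.085), and so it did in H226 (0.93 ± 0.20). In H226 it was low, at 4.96 ± 0.709 CPM under SWTX-143 against 2.59 ± 0.0464 CPM under DMSO. The polyamine transporter ATP13A3 fell in ACHN (−0.22 ± 0.040) and had 0.026 ± 0.040, adjusted p = 0.629, in H226.

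Other purine genes were 5 lower and 2 higher of 16 in H226 (31.2% and 12.5%, against 21.6% and 19.0% of all genes), and 1 lower and 1 higher of 15 in ACHN (6.67% each, against 9.37% and 8.43%). The IMP and GMP nucleotidase NT5C2 fell in H226, with 109.6 ± 1.19 CPM under SWTX-143 against 177 ± 5.05 CPM under DMSO (−0.69 ± 0.046, adjusted p = 8.98e-19). AMPD3, an AMP deaminase, rose in both (0.50 ± 0.11 in H226 and 0.65 ± 0.13 in ACHN). Other pyrimidine and deoxynucleotide genes split evenly in H226, 5 lower and 5 higher of 21 (23.8% each), near the 21.6% and 19.0% of all genes. The dCTP pyrophosphatase DCTPP1 fell (−0.67 ± 0.076), while the mitochondrial nucleotide kinase CMPK2 (0.75 ± 0.16) and the nucleotidase NT5C3A (0.23 ± 0.054) rose. In ACHN 3 of 20 were called, all higher (0% lower and 15% higher, against 9.37% and 8.43% of all genes). They were the mitochondrial thymidine kinase TK2 (0.43 ± 0.067), the thymidine phosphorylase TYMP (0.87 ± 0.25) and the dNTP hydrolase SAMHD1 (0.22 ± 0.065). TK2 (0.25 ± 0.070) and TYMP (0.69 ± 0.17) rose in H226 too, where SAMHD1 had 0.033 ± 0.089, adjusted p = 0.802. TYMP was low in both lines. It had 3.16 ± 0.339 CPM under SWTX-143 against 1.74 ± 0.632 CPM under DMSO in ACHN, and 5.89 ± 0.328 CPM against 3.64 ± 0.726 CPM in H226. Among PRPP and amide donors, 2 fell and 2 rose of 11 in H226 (18.2% each), near the 21.6% and 19.0% of all genes. Glutamine synthetase GLUL was among the higher (0.15 ± 0.049). In ACHN 1 of 11 was called, as higher (9.09%, near the 8.43% of all genes).

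Known regulators of these pathways were measured in the same libraries. MYC averaged 85.2 ± 3.05 CPM under SWTX-143 against 116 ± 4.68 CPM under DMSO in H226 (−0.45 ± 0.051, adjusted p = 1.52e-10). E2F1 averaged 16.2 ± 3.24 CPM under SWTX-143 against 28.9 ± 0.50 CPM under DMSO in H226 (−0.83 ± 0.10, adjusted p = 2.35e-09). ATF4 averaged 108 ± 0.639 CPM under SWTX-143 against 112 ± 3.31 CPM under DMSO in H226 and was not called (−0.045 ± 0.048, adjusted p = 0.487). In ACHN, MYC (−0.059 ± 0.045, adjusted p = 0.407) and E2F1 (−0.10 ± 0.081, adjusted p = 0.46) were not called, and ATF4 fell slightly (−0.10 ± 0.038, adjusted p = 0.0462). Their part in the changes of the 40 genes was not tested.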

How the data were processed

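The deposited tables, 1 per line, held raw counts per gene symbol as made by the authors, whole numbers with unequal totals. Per the submitters' processing notes, paired reads of 100 bases were handled with FastQC, cutadapt and STAR 2.6.1d on hg19 (GRCh37). The sources used here do not name the program that counted the reads, its annotation or its strand setting. For that reason reads of overlapping genes cannot be told apart. The 40 genes and all lists were chosen with earlier results of these data known.

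With R 4.3.3 and edgeR 4.0.16, each line was fitted alone by SWTX-143 against DMSO (filterByExpr, TMM scaling, robust quasi-likelihood F test, Benjamini-Hochberg adjustment over all genes, limit 0.05). The difference and the level under DMSO came from 1 fit of all 12 libraries. Alternatives included DESeq2 1.42.0, other scalings, no filter, a replicate block and leaving out each library. The biological coefficient of variation was 3.98% in H226, 3.23% in ACHN and 3.65% in the joint fit. On simulated counts, 87% of genes changed by 0.5 on the log2 scale were recovered in H226, 94% in ACHN and 71% for the difference. The changed genes were drawn only from those with higher counts, and all genes were given the same spread. These rates thus do not cover genes at low counts or with a larger spread.

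Values in every library are given for the 6 called genes with the largest change per line, provided that their mean reached 5 CPM and their groups did not overlap. They are also given for the 6 largest differences between lines and for 6 isozyme pairs. PHGDH and PSAT1 were added after their values were seen. Of other pathway genes, up to 3 per list and line with the smallest p are named, and some of these are not reported here. Promoters, exon lengths and overlaps came from RefSeq (GRCh38.p14) and GENCODE 29 (GRCh38) by symbol, and no coordinates of the count tables were used. No 2 libraries of a group agreed within sampling noise (chi-square per degree of freedom of 1.36 to 3.42).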

Additional observations from a re-analysis of the deposited data

Results flagged for a closer look

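For 23 of the 40 genes the test of the difference itself, the SWTX-143 effect in H226 minus that in ACHN on the log2 scale, gave an adjusted p below 0.05 in edgeR's quasi-likelihood test over all tested genes. In PRPP and purine synthesis the differences were −0.63 for PRPS1, −0.30 for PRPS2, −0.54 for PPAT, −0.47 for GART, −0.33 for PFAS, −0.39 for PAICS, −0.39 for ATIC and −0.39 for GMPS. Among the pyrimidine and deoxynucleotide enzymes, they were −0.31 for CAD, −1.01 for CTPS1, −0.49 for RRM2 and −0.38 for TYMS. The salvage kinases TK1 and UCK2 had −0.30 and −0.37, HPRT1 had −0.26 and NME1 had −0.28. In the folate group MTHFD1 had −0.34 and MTHFD2 had −0.35. In the serine group PHGDH had 0.38 and PSAT1 had −0.39. The polyamine enzymes ODC1, AMD1 and SRM had −0.26, −0.39 and −0.49. A negative value means a more negative effect in H226, and only PHGDH of these 23 had a positive one.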

How the results depend on the processing

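Of the called genes among the 40, 27 of 31 in H226 and 6 of 9 in ACHN were called in all 13 alternative settings of that comparison, as were 20 of 23 differences between lines in 18 settings and 31 of 38 differences under DMSO in 12. The settings were other scalings, DESeq2, no filter on low counts, a replicate block, 1 fit of all 12 libraries (for the effects within lines) and leaving out each library. In H226, 1 member was called higher by DESeq2 in place of 2. Leaving out 1 library gave 28 to 30 lower and 1 to 3 higher, with 1 higher without DMSO library 2 or 3 or SWTX-143 library 1 or 2. In ACHN, upper-quartile scaling called 1 member higher and library size alone 2, in place of 0. Leaving out 1 library gave 7 to 8 lower and 0 to 1 higher, with 1 higher without DMSO library 1 or SWTX-143 library 1. For all ACHN genes DESeq2 called 638 higher in place of 1137. For the difference between lines, leaving out 1 library gave 19 to 23 members more negative in H226. Over all genes DESeq2 called 856 more negative and 704 more positive in H226, in place of 1423 and 863. Without any 1 of the H226 libraries, 832 to 1006 were more negative and 948 to 1140 more positive. The median of all genes then moved by 0.034 to 0.047. Without any 1 of the ACHN libraries, 1183 to 1411 were more negative and 716 to 842 more positive, and the median moved by −0.003 to 0.002. Under DMSO, GART turned to −0.059 with library size alone. The cause of these shifts was not tested. With the replicate block, H226 had 29 lower and 2 higher, ACHN 8 lower and 0 higher (RRM2 at −0.12, adjusted p = 0.0616), the difference 22 and 1, and the level under DMSO 29 and 9. Over all genes the replicate block gave 3062 lower and 2682 higher in H226, and 1151 lower and 995 higher in ACHN. The deviations of libraries with the same number correlated at −0.06, 0.18 and 0.11 in H226 and at −0.13, −0.16 and −0.061 in ACHN, so the numbers were not taken to pair the libraries. Genes at low counts, such as MTHFD2L, CTPS2 and DHODH, could have changed without being detectable at this depth.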
